A study of Mus musculus with 39 samples.

Results

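Il1a, Il1b and Tnf encode the inflammatory cytokines interleukin-1 alpha, interleukin-1 beta and tumour necrosis factor, and they were taken by gene symbol as 3 of the 10915 entries of the deposited microglial expression table. All 3 symbols were found. The table holds 39 libraries of microglia, the resident macrophages of the brain, which were sorted by flow cytometry from female C57BL/6J mice aged 9 months. The mice were wildtype littermates or hemizygous APP23 mice, which carry human amyloid precursor protein with the K670N and M671L changes, driven by the Thy1 promoter, a promoter used for expression in neurons. At 3 months of age each mouse had received 4 daily intraperitoneal injections. PBS mice received vehicle 4 times, 1xLPS mice received lipopolysaccharide from Salmonella enterica serotype typhimurium once and then vehicle 3 times, and 4xLPS mice received lipopolysaccharide all 4 times, at 500 µg per kg body weight. The 24 wildtype libraries comprised 9 after PBS, 9 after 1xLPS and 6 after 4xLPS, and the 15 APP23 libraries comprised 6, 5 and 4. The comparisons address whether cytokine transcripts of microglia differ with genotype, or with an inflammatory challenge given months earlier.

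Lipopolysaccharide is a component of the outer membrane of Gram-negative bacteria that is sensed through Tlr4 and its co-receptor Cd14. The signal passes through adaptors to NF-kB, which drives transcription of Il1a, Il1b and Tnf within hours. Interleukin-1 alpha and beta bind the same receptor, Il1r1 with its accessory chain Il1rap. Interleukin-1 beta is made as an inactive precursor that caspase-1 (Casp1) cleaves in an inflammasome such as the one built on Nlrp3, whereas the interleukin-1 alpha precursor is already active. TNF is made as a membrane protein, is shed by Adam17 and acts through Tnfrsf1a and Tnfrsf1b. In microglia these cytokines are among the main products of an acute inflammatory response, and their mRNAs are kept short-lived by proteins such as Zfp36 that bind AU-rich elements in the 3′ untranslated region.

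Il1a and Il1b are neighbours on mouse chromosome 2 in the mm10 (GRCm38) build with GENCODE M21 annotation. Il1a (ENSMUSG00000027399.1) runs from 129299610 to 129309972 on the minus strand in 7 exons and encodes 270 amino acids. Il1b (ENSMUSG00000027398.13) runs from 129364570 to 129371139 on the same strand, also in 7 exons, and encodes 269 amino acids, with 54597 bases between the genes. Tnf (ENSMUSG00000024401.14) lies on chromosome 17 from 35199381 to 35202007, on the minus strand, in 4 exons that encode 235 amino acids. On the opposite strand the annotation places Gm14023 over Il1a and the antisense gene Il1bos over Il1b, and no gene over Tnf. No label or header says whether counting used the strand, so reads of Il1a or Il1b and of the overlapping gene cannot be told apart.

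The promoters are shown because all 3 genes are classical targets of the same lipopolysaccharide signal. They are the 250 bases before the RefSeq start (GRCm38.p6), 5′ to 3′ on the minus strand, with capitals at matches to TATAAA, to TGANTCA (the AP-1 motif) or to GGG, any 5 bases and CC (a core of NF-kB motifs), each searched on both strands.
Il1a, chr2:129309973-129310222: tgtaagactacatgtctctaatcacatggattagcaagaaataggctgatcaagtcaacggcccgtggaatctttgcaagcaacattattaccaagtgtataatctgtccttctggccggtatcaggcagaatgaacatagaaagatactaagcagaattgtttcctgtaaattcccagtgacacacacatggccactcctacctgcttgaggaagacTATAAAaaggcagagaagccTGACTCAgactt
Il1b, chr2:129371140-129371389: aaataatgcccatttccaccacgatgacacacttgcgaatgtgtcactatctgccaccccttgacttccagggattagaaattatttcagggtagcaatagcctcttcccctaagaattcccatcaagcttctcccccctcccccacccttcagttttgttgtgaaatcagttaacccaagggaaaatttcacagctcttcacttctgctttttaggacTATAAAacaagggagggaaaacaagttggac
Tnf, chr17:35202008-35202257: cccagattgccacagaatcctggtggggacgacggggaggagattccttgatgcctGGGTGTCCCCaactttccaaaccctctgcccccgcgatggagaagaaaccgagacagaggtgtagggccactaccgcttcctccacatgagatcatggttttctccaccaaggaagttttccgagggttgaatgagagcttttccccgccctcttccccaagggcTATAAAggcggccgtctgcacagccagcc
TATAAA stood in all 3, from 32 to 27 bases before the start in Il1a, 31 to 26 in Il1b and 29 to 24 in Tnf, and 12.4% of 32851 RefSeq promoter windows held it. TGACTCA stood in Il1a from 12 to 6 bases before the start, and 6.75% of windows held TGANTCA. GGGTGTCCCC stood in Tnf from 194 to 185 bases before the start, a match on both strands, and 45.8% of windows held that motif. These matches describe letters only, and none is evidence that a factor was bound.

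The 3′ untranslated regions are shown because they carry the AU-rich elements through which cytokine mRNAs are cleared. The stretches below are the 30 bases of each that hold the most ATTTA pentamers, with each ATTTA in capitals, written as DNA 5′ to 3′.
Il1a, bases 573 to 602 of 1101: attttatctatgtATTTAtaaatatATTTA
Il1b, bases 192 to 221 of 459: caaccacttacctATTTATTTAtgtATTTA
Tnf, bases 437 to 466 of 764: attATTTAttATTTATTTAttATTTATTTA
The whole region held 3 ATTTA in Il1a, 4 in Il1b and 8 in Tnf, counted with overlaps. Of 10055 genes of the table with an annotated 3′ untranslated region, 66.1% held at least 1 ATTTA and 34.1% held at least 3. The nonamer TTATTTATT occurred 5 times in Tnf and 0 times in Il1a and Il1b, and 7.04% of genes held at least 1 copy.

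Values are the authors' log2 expression after surrogate variable correction, so a difference of 1 is a 2-fold change. The read depth behind them is unknown, and levels of different genes are not compared because the values are not per length. Library means over all entries were 9.00 to 9.01, libraries of the same group correlated at 0.999 to 1.00 (Pearson r over entries), and no 2 libraries were identical. All 12 microglial markers were present, with group means of 12.47 to 12.51, and of markers of other cells the table held 5 of 8 for border macrophages, 4 of 8 for dendritic cells, 2 of 10 for monocytes and neutrophils, 3 of 7 for oligodendrocytes, 2 of 7 for astrocytes, 2 of 6 for endothelium, 1 of 8 for neurons and 1 of 10 for lymphocytes. Differences were tested with limma over all 10915 entries in 12 comparisons, and a gene was called at a Benjamini-Hochberg adjusted p under 0.05. The correction left 24 rather than 33 independent directions among the residuals, and the tests use 24 degrees of freedom. No label or header names the factors it removed, so p-values may still be too small. The labels do not say that each library is a separate mouse, and p-values measure the spread between libraries, which may be technical.

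Il1a was lower in APP23 than in wildtype microglia after PBS, by 0.060 on the log2 scale or to 0.96 times the wildtype level. A difference of nearly the same size after 1xLPS missed the threshold. After 4xLPS the APP23 and wildtype libraries overlapped. The 3 wildtype groups had the highest Il1a means and the 3 APP23 groups the lowest. In bulk RNA, fewer cells that express a gene and less RNA per cell cannot be told apart.

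Across the 9 wildtype PBS libraries Il1a ranged from 10.851 to 10.903 with a median of 10.869. The 6 APP23 PBS libraries ranged from 10.786 to 10.833 with a median of 10.814. Every APP23 library therefore lay below every wildtype library. The group means were 10.87 ± 0.015 (SD, n = 9) and 10.81 ± 0.019 (SD, n = 6). The difference was -0.060 (SE 0.014, 95% interval -0.089 to -0.030, adjusted p = 0.0275, limma) and all 6 APP23 libraries were below the wildtype mean. In this comparison 2.51% of all entries were called, 1.15% as lower, and 0.696% were lower with no overlap. Of 15 fits that each left out 1 library, 14 kept the call, and without APP23 PBS replicate 4 the difference was -0.056 with an adjusted p of 0.0526.

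After 1xLPS the 9 wildtype libraries held Il1a at 10.831 to 10.893 with a median of 10.870. The 5 APP23 libraries were at 10.806, 10.803, 10.795, 10.812 and 10.811. These groups did not overlap either, and the APP23 libraries were packed closely, with an SD of 0.0070 (n = 5). The difference of -0.059 (SE 0.015, 95% interval -0.090 to -0.028) had an adjusted p of 0.0710 in limma, above the threshold, and 0.33% of all entries were called. With 33 degrees of freedom, where 4.34% of entries were called, the adjusted p was 0.00651, and over 8 alternative settings of the fit it ran from 0.00651 to 0.208. Of 14 fits that each left out 1 library, 1 gave a call, without wildtype 1xLPS replicate 3 (-0.063, limma adjusted p = 0.0469). Over the 14 fits the adjusted p ran from 0.0469 to 0.130. A lower level with no overlap, as in 0.88% of entries after 1xLPS, occurred after both PBS and 1xLPS in 3 of 10915 entries, Il1a among them. That count leaves out 4xLPS, where the Il1a groups overlap. It rests on the same libraries as the Il1a differences and is no separate evidence.

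After 4xLPS the 6 wildtype libraries ranged from 10.796 to 10.882 with a median of 10.846. The 4 APP23 libraries held 10.886, 10.828, 10.797 and 10.815. APP23 replicate 1 was the highest of all 10 libraries and the other 3 lay within the wildtype range. The difference was -0.012 (SE 0.017, 95% interval -0.048 to 0.024, adjusted p = 0.874, limma), and without APP23 4xLPS replicate 1 it was -0.030 (adjusted p = 0.589). Whether the response to 4xLPS differed between genotypes was tested as an interaction of 0.048 (95% interval 0.0016 to 0.094), with an unadjusted limma p of 0.0431 and an adjusted p of 0.319, and it was 0.029 without APP23 4xLPS replicate 1 (adjusted p = 0.564). The genotype effect on Il1a is therefore not shown to depend on treatment. Averaged over the 3 treatments, APP23 minus wildtype was -0.044 (SE 0.0090, 95% interval -0.062 to -0.025, adjusted p = 0.0194, limma), a comparison that called 1.18% of entries and 0.559% as lower. That average shares its libraries with the comparisons above, and the call remained in each of 39 fits that left out 1 library.

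The LPS groups of the same genotype did not differ in Il1a beyond the threshold. In wildtype microglia the difference from PBS was -0.0053 after 1xLPS (95% interval -0.031 to 0.021, adjusted p = 0.887) and -0.026 after 4xLPS (95% interval -0.055 to 0.0028, adjusted p = 0.341), both in limma. In APP23 microglia it was -0.0049 after 1xLPS (95% interval -0.038 to 0.029) and 0.021 after 4xLPS (95% interval -0.014 to 0.057), with adjusted p-values of 0.966 and 0.820. The latter difference was 0.0032 without APP23 4xLPS replicate 1. In APP23 the limma test called 0 of 10915 entries for either treatment, while 924 and 832 had an unadjusted p under 0.05 and 78 and 27 were called with 33 degrees of freedom.

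**Figure D1:**
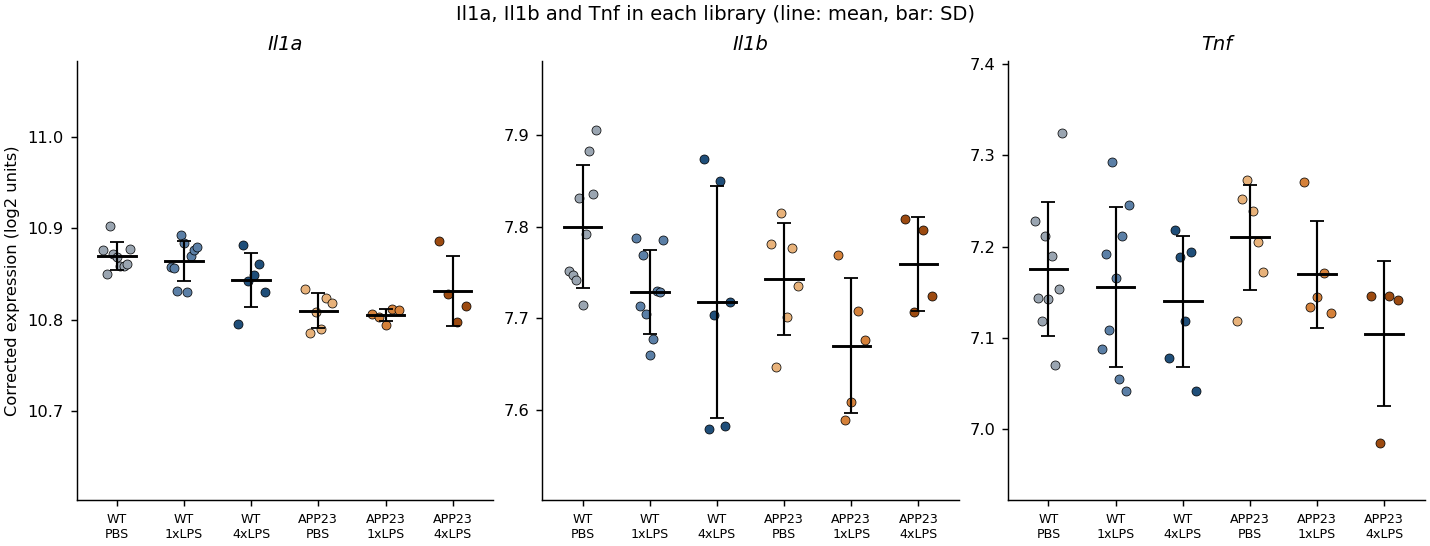
Log2 expression of Il1a, Il1b and Tnf (vertical axis, 1 panel per gene) in each of the 39 libraries by genotype and treatment, with points for libraries, a line for the group mean and a bar for 1 SD. The APP23 PBS and APP23 1xLPS points of Il1a lie below all points of the matching wildtype group, while the groups of Il1b and Tnf overlap.

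Il1b passed the threshold in 0 of the 12 comparisons. Its highest group mean was in wildtype PBS libraries and its lowest in APP23 1xLPS libraries, 0.13 apart on the log2 scale. The comparisons not yet described called 0.0183% of all entries (wildtype 4xLPS against 1xLPS), 0.0366% (1xLPS interaction), 0.522% (4xLPS interaction) and 0% (APP23 4xLPS against 1xLPS and APP23 against wildtype after 4xLPS). Limma gave no unadjusted p under 0.05 for Il1b in any of the 12, and the smallest adjusted p was 0.321, or 0.157 with 33 degrees of freedom. Over the 9 two-group comparisons the 95% intervals reached from -0.17 to 0.20, which is 0.887 to 1.15 times the level of the reference group.

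Il1b in the 9 wildtype PBS libraries ranged from 7.71 to 7.91 with a median of 7.79. After 1xLPS the 9 wildtype libraries ranged from 7.66 to 7.79 with a median of 7.73, and after 4xLPS the 6 ranged from 7.58 to 7.87 with a median of 7.71. The groups overlapped, although 9 of 9 wildtype 1xLPS libraries and 4 of 6 wildtype 4xLPS libraries lay below the PBS mean. The difference from PBS was -0.072 after 1xLPS (SE 0.038, 95% interval -0.15 to 0.0069, adjusted p = 0.381, limma) and -0.083 after 4xLPS (SE 0.043, 95% interval -0.17 to 0.0055, adjusted p = 0.321, limma). In these comparisons 0.44% and 1.51% of all entries were called. The SD of 0.13 among wildtype 4xLPS libraries was the widest of the 6 groups for Il1b.

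In APP23 microglia Il1b ranged from 7.65 to 7.81 with a median of 7.76 after PBS. The 5 libraries after 1xLPS held 7.77, 7.59, 7.61, 7.71 and 7.68. The 4 libraries after 4xLPS held 7.81, 7.71, 7.80 and 7.72, all above the 1xLPS mean of 7.67 ± 0.074 (SD, n = 5). The ranges of the 1xLPS and 4xLPS libraries still overlapped, and the difference of 0.089 (SE 0.055, 95% interval -0.023 to 0.20) had an adjusted p of 0.623 in limma. APP23 minus wildtype was -0.058 after PBS (95% interval -0.15 to 0.030, adjusted p = 0.503), -0.058 after 1xLPS (95% interval -0.15 to 0.035, adjusted p = 0.627) and 0.041 after 4xLPS (95% interval -0.067 to 0.15, adjusted p = 0.854). The interaction for 4xLPS was 0.099 (95% interval -0.040 to 0.24, adjusted p = 0.537).

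Tnf also passed the threshold in 0 of 12 comparisons, with no unadjusted limma p under 0.05. The smallest adjusted p was 0.662, or 0.302 with 33 degrees of freedom. Its highest mean was in APP23 PBS libraries and its lowest in APP23 4xLPS libraries, 0.11 apart. The 95% intervals of the 9 two-group comparisons reached from -0.21 to 0.12, or 0.863 to 1.09 times the reference level.

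Tnf in APP23 microglia ranged from 7.12 to 7.27 with a median of 7.22 over the 6 PBS libraries. After 1xLPS the 5 libraries held 7.27, 7.13, 7.14, 7.17 and 7.13, and after 4xLPS the 4 libraries held 7.15, 6.99, 7.15 and 7.14. All 4 of the 4xLPS libraries lay below the PBS mean, but the ranges overlapped and replicate 2 stood well below the other 3. The difference between 4xLPS and PBS was -0.11 (SE 0.052, 95% interval -0.21 to 0.0017, adjusted p = 0.662, limma), and without replicate 2 it was -0.065 (adjusted p = 0.836). In wildtype microglia Tnf ranged from 7.07 to 7.32 with a median of 7.15 after PBS, from 7.04 to 7.29 with a median of 7.17 after 1xLPS and from 7.04 to 7.22 with a median of 7.15 after 4xLPS. These ranges overlapped over most of their length. The difference from wildtype PBS was -0.020 after 1xLPS (95% interval -0.098 to 0.058, adjusted p = 0.851) and -0.036 after 4xLPS (95% interval -0.12 to 0.052, adjusted p = 0.717). APP23 minus wildtype was 0.034 after PBS (95% interval -0.053 to 0.12, adjusted p = 0.723), 0.014 after 1xLPS (95% interval -0.079 to 0.11) and -0.035 after 4xLPS (95% interval -0.14 to 0.072).

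**Figure D2:**
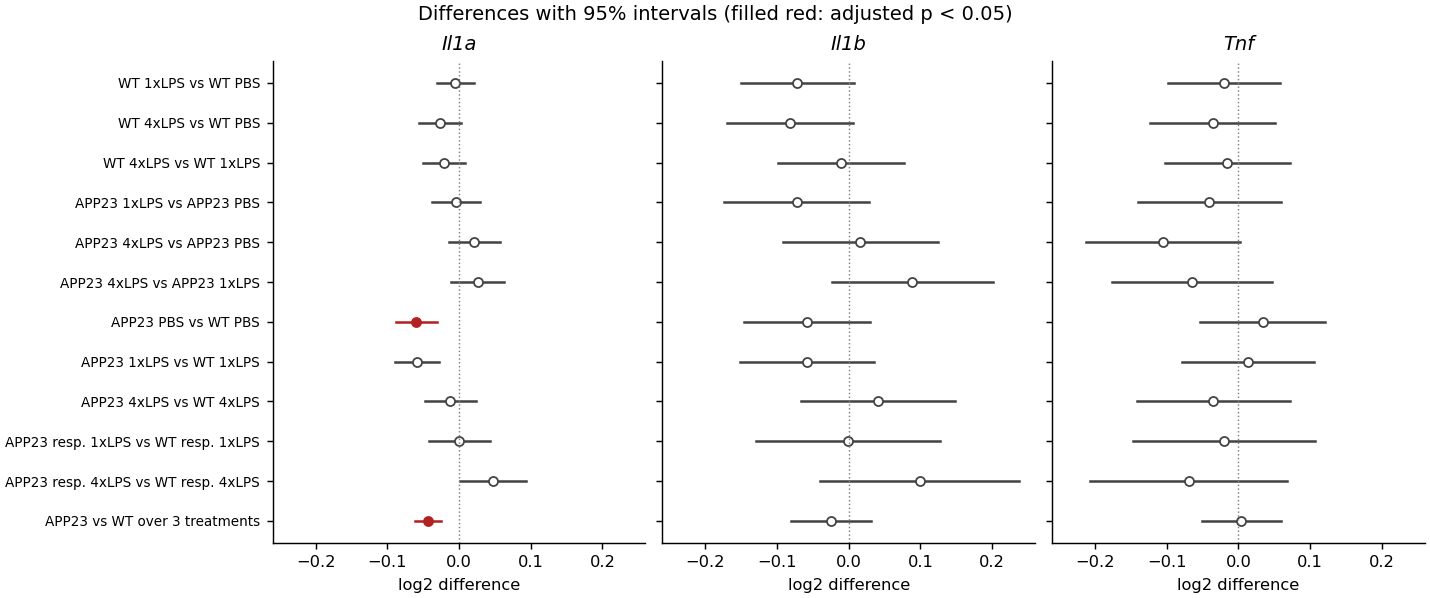
Log2 differences (horizontal axis) of Il1a, Il1b and Tnf in the 12 comparisons (vertical axis), with bars for 95% intervals and red filled points for an adjusted p under 0.05. The 2 red points belong to Il1a, APP23 against wildtype after PBS (-0.060) and over 3 treatments (-0.044), and the intervals of Il1b and Tnf are wider than those of Il1a.

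In order of group means no gene had 2 neighbouring groups that differed by more than the larger of their SDs. From highest to lowest, Il1a ran wildtype PBS, wildtype 1xLPS, wildtype 4xLPS, APP23 4xLPS, APP23 PBS and APP23 1xLPS, over a span of 0.065. Il1b ran wildtype PBS, APP23 4xLPS, APP23 PBS, wildtype 1xLPS, wildtype 4xLPS and APP23 1xLPS, and Tnf ran APP23 PBS, wildtype PBS, APP23 1xLPS, wildtype 1xLPS, wildtype 4xLPS and APP23 4xLPS. The spread within groups differed among the cytokines, with a residual SD of 0.026 for Il1a, 0.087 for Il1b and 0.086 for Tnf. Il1a was wider than 26.2% of the 500 entries nearest to it in mean level, Il1b wider than 95.2% and Tnf wider than 96.4%. Between cytokines the Pearson r over the 39 libraries was 0.15 between Il1a and Il1b, 0.10 between Il1a and Tnf and 0.019 between Il1b and Tnf. With group means removed these were -0.16, 0.29 and -0.0027.

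Among the other ligands, receptors and signalling genes of both cytokine families, few passed the threshold. Of 86 genes besides the cytokines themselves, in 7 lists, 2 were called in APP23 against wildtype after PBS, 2.33% against 2.51% of all entries. After 1xLPS 2 were called, again 2.33%, against 0.33% of all entries. After PBS and after 1xLPS, 17 and 12 of the 86 had an unadjusted limma p under 0.05. Of all 10915 entries, 1977 and 1411 had such a p. Wildtype 4xLPS against PBS called 1 of the 86, 1.16% against 1.51% of all entries. The lists were drawn up with results of these data known.

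Il1r1, the signalling receptor of interleukin-1, was lower in APP23 than in wildtype microglia in the same comparisons in which Il1a was low. After PBS it ranged from 6.28 to 6.43 with a median of 6.36 in wildtype libraries and from 6.18 to 6.29 with a median of 6.24 in APP23 libraries, ranges that overlap slightly. The difference was -0.13 (SE 0.026, adjusted p = 0.0126, limma), and after 1xLPS it was -0.14 (SE 0.027, adjusted p = 0.0330, limma). After 4xLPS the Il1r1 difference was 0.023 (adjusted p = 0.863, limma). Its mean over the 39 libraries was 6.31, below the lower quartile of all entry means at 8.08. Of 14 measured genes of interleukin-1 reception and signalling Il1r1 was the single one called after PBS and after 1xLPS, where 2.51% and 0.33% of all entries were called. The median difference of the list was -0.010 and -0.015, against 0.0021 and -1.2e-05 over all entries. The accessory chain Il1rap stood at -0.027 after PBS (adjusted p = 0.801). Il18, a related cytokine that is also cut by caspase-1, differed by 0.015 after PBS (adjusted p = 0.657).

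The genes that process interleukin-1 were not called. Of 17 measured inflammasome genes, 0 passed in any of the 12 comparisons in limma, with 15 gene and comparison combinations at an unadjusted p under 0.05 and 6 called with 33 degrees of freedom. Per comparison 0% to 2.51% of all entries were called. Of all 10915 entries 832 to 1977 had such a p, and 27 to 1050 were called with 33 degrees of freedom. Against these shares 0 calls do not set apart a list this short, and the same holds for the TNF list below. In APP23 against wildtype after PBS, Casp1 differed by 0.027 (adjusted p = 0.350) and Nlrp3 by 0.020 (adjusted p = 0.889). The 8 measured genes of TNF ligands, shedding and receptors, Tnf included, likewise gave 0 calls, with 15 combinations at an unadjusted p under 0.05 and 4 called with 33 degrees of freedom. Adam17 differed by 0.017, Tnfrsf1a by 0.026 and Tnfrsf1b by 0.0096 in that comparison, with adjusted p-values of 0.362, 0.178 and 0.701. Downstream of the TNF receptors, Traf2, an adaptor that recruits ubiquitin ligases, was lower in APP23 after 1xLPS (-0.090, SE 0.020, adjusted p = 0.0426, limma), the single call among 17 genes. After 1xLPS 0.33% of all entries were called. Of the 17 genes 12 had a difference below 0 and 5 above, with a median of -0.025 against -1.2e-05 over all entries. An unadjusted limma p under 0.05 was found for 5 of the 17, against 1411 of all 10915 entries.

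Upstream, Tlr4 was lower in APP23 than in wildtype microglia after PBS (-0.065, SE 0.016, adjusted p = 0.0329, limma), while Cd14 differed by -0.0082 (adjusted p = 0.805). The Tlr4 difference was -0.020 after 1xLPS and -0.0063 after 4xLPS (limma adjusted p = 0.665 and 0.950). Among 13 measured genes of the NF-kB list, Chuk was higher in APP23 after PBS (0.064, SE 0.016, adjusted p = 0.0338, limma) and in wildtype after 4xLPS against PBS (0.079, SE 0.016, adjusted p = 0.0139, limma). Chuk encodes the kinase IKK alpha, which is neither an NF-kB subunit nor an inhibitor. Of all entries 2.51% were called in the former comparison and 1.51% in the latter. These 2 comparisons share the wildtype PBS libraries. Nfkbia, the inhibitor IkB alpha and itself an NF-kB target, differed by 0.049 in APP23 after PBS (adjusted p = 0.146). None of 17 genes that govern decay and translation of cytokine mRNAs was called after PBS, where Zfp36 differed by 0.081 (adjusted p = 0.298). Of the 17, 3 had an unadjusted limma p under 0.05 after PBS, against 1977 of all 10915 entries. Hnrnpd, which encodes the AU-rich element binding protein AUF1, had a response to 4xLPS that was 0.16 higher in APP23 than in wildtype (SE 0.036, adjusted p = 0.0371, limma). In that interaction 0.522% of all entries were called.

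Of 12 measured cytokines and chemokines outside the lists above, Ccl3 (-0.11, SE 0.026, adjusted p = 0.0278, limma) and Ccl4 (-0.17, SE 0.033, adjusted p = 0.0109, limma), both inflammatory chemokines, were lower in wildtype microglia after 4xLPS than after PBS, where 1.51% of all entries were called. The median of those 12 was -0.031, against 0.0023 over all entries. Among 14 measured genes of the immediate early response, which cell isolation can induce, Fos was the single call in APP23 against wildtype after PBS (0.27, SE 0.062, adjusted p = 0.0225, limma), where 2.51% of all entries were called. In that comparison 11 of the 14 had a difference above 0, and the median was 0.046 against 0.0021 over all entries. An unadjusted limma p under 0.05 was found for 7 of the 14, against 1977 of all 10915 entries. After 1xLPS 2 of the 14 had a difference above 0 and the median was -0.028. The part of these genes in the Il1a difference was not tested. Over 39 libraries the Pearson r of Fos with Il1a was -0.014, and 0.36 with group means removed. The genes that flank the cytokines, Slc20a1, Ckap2l and Sirpa on chromosome 2 and Lst1, Ltb and Nfkbil1 on chromosome 17, were not called in that comparison (limma adjusted p from 0.112 to 0.872).

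**Figure D3:**
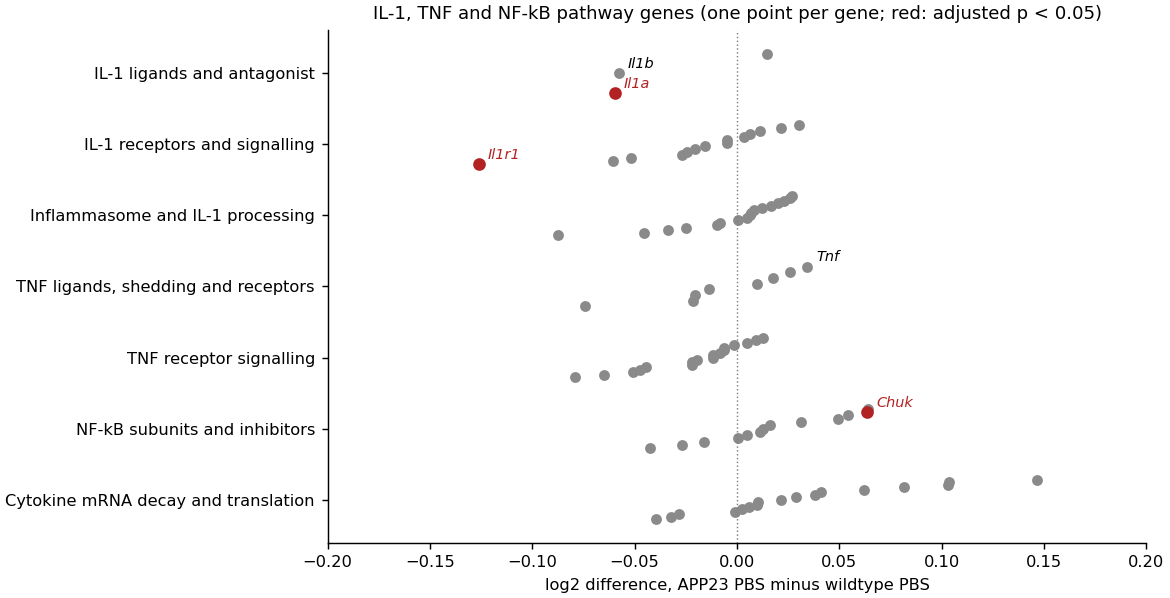
APP23 minus wildtype log2 difference after PBS (horizontal axis) for each measured gene of 7 lists of interleukin-1 and TNF genes (vertical axis), 1 point per gene, red for an adjusted p under 0.05. Il1a and Il1r1 stand on the lower side and Chuk on the higher side, and the other genes were not called.

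The genes most like each cytokine over the 39 libraries were found by Pearson r, and since these libraries share genotype, treatment and the surrogate variable correction the values are a description. For Il1a they were Arhgap15, a GTPase activating protein (r = 0.79), Fxyd5, a regulator of the sodium pump (0.72), Ccr2, the monocyte chemokine receptor (0.72), Myc (0.71) and Bhlhe41, a transcriptional repressor (0.71). With group means removed their r was 0.58, 0.53, 0.45, 0.51 and 0.46. For Il1b they were 5430405H02Rik (0.67), Uba3 (0.61), Cdkn1b (0.61), Hip1 (0.61) and Grk4 (0.60), and for Tnf Snora70 (0.66), Slc16a13 (0.65), Ncor1 (0.63), Hook3 (0.62) and Rgs3 (0.61). The r of Il1r1 with Il1a was 0.65, and 0.098 with group means removed.

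Of the genes most like Il1a, 4 of 5 were also called lower in APP23 than in wildtype after PBS, Ccr2 by -0.23 (SE 0.057, adjusted p = 0.0329), Bhlhe41 by -0.15 (adjusted p = 0.0357), Arhgap15 by -0.13 (adjusted p = 0.0361) and Fxyd5 by -0.13 (adjusted p = 0.0336), all in limma. The other, Myc, differed by -0.10 (95% interval -0.18 to -0.026, adjusted p = 0.131). They were chosen for likeness to Il1a over the same libraries, which makes this no independent evidence. Ccr2 also marks monocytes, and the mean of the measured monocyte and neutrophil markers, Ccr2 and Plac8, ran from 7.76 to 7.96 in wildtype PBS and from 7.71 to 7.88 in APP23 PBS libraries. Plac8 differed by 0.044 (adjusted p = 0.608), in the opposite direction to Ccr2. Among border macrophage markers, measured for 5 of 8, Stab1 was higher by 0.067 (SE 0.017, adjusted p = 0.0336, limma), and the mean of the list ran from 8.03 to 8.18 in wildtype PBS and from 8.05 to 8.17 in APP23 PBS libraries. After 1xLPS, where Il1a did not overlap either, that mean ran from 8.104 to 8.225 in wildtype and from 8.007 to 8.097 in APP23 libraries without overlap, and 4 of the 5 markers had a difference below 0, with 3 at an unadjusted limma p under 0.05 and 0 called. Over the 3 treatments Cd209a, 1 of 4 measured dendritic cell markers, differed by -0.16 in APP23 (SE 0.037, adjusted p = 0.0335, limma), and the list mean ran from 7.67 to 7.75 in wildtype PBS and from 7.64 to 7.73 in APP23 PBS libraries. After 1xLPS the list mean ran from 7.65 to 7.74 in wildtype and from 7.59 to 7.68 in APP23 libraries, and 4 of 4 markers had a difference below 0, with 2 at an unadjusted limma p under 0.05 and 0 called. After 1xLPS 0.33% of all entries were called, and 1411 of 10915 had an unadjusted limma p under 0.05. The share of 0.88% without overlap given above is for single entries, and no such share was computed for list means. Of the 12 microglial markers, 12 had a difference above 0 in APP23 against wildtype after PBS (median 0.028 against 0.0021 over all entries) and over 3 treatments (median 0.015 against 0.00055), the comparisons in which Il1a was called. Limma called 0 of the 12 in both, and 1 and 2 had an unadjusted p under 0.05, against 1977 and 1617 of all 10915 entries. The part of these cell types in the Il1a difference was not tested.

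**Figure D4:**
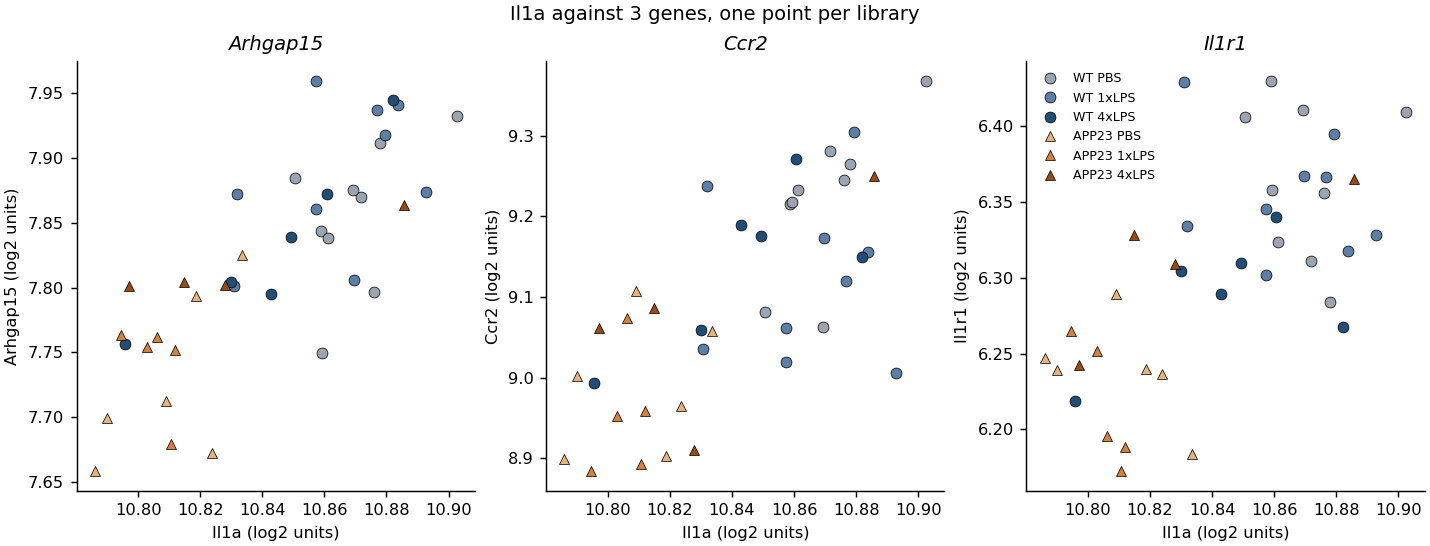
Log2 expression of Arhgap15, Ccr2 and Il1r1 (vertical axes, 1 panel each) against Il1a (horizontal axis), 1 point per library with circles for wildtype and triangles for APP23. The 39 points slope upward in each panel (r = 0.79, 0.72 and 0.65), with most APP23 points at the lower left.

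The authors' deposited table of a weighted co-expression network, which covers 13624 genes, placed the 3 cytokines in different modules. In the authors' deposited table Il1a was grey, the colour for genes without a module, Il1b was blue and Tnf was yellow. The authors' deposited table correlated Il1b with the blue module at 0.13 (unadjusted p = 0.425), and 319 of 1878 blue genes had a lower value, while it correlated Tnf with yellow at 0.36 (unadjusted p = 0.0228). In the authors' deposited table the trait named for 1xLPS had a correlation of -0.45 with Il1a (unadjusted p = 0.00382), -0.36 with Il1b (unadjusted p = 0.0244) and 0.041 with Tnf (unadjusted p = 0.804). Over the 10907 genes shared with the expression table, those trait correlations followed membership in the APP23 1xLPS group (r = 0.99 across genes, which are not independent replicates) more closely than membership in either 1xLPS group (r = 0.52). That group held the lowest mean of Il1a and of Il1b.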

How the data were processed

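PolyA RNA of sorted microglia was converted to cDNA with a Smart-seq protocol and sequenced after Nextera XT preparation, per the labels' protocols. The submitters' processing notes name FastQC, STAR 2.3.060, HOMER, DESeq2, limma and the mm10 build, without roles. The deposited expression values were read as log2 from their range of 3.46 to 13.8, and the file header says that surrogate variable analysis was applied. Such a correction removes variance from the libraries, and no label or header names its factors. The authors' co-expression scores (correlations of each gene with a trait or a module) and their p-values were copied as deposited.

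Groups came from the labels, and 1 table column that no label matched was not used. All 39 libraries entered 1 linear model in limma 3.58.1 (R 4.3.3) with 6 groups, empirical Bayes with a trend and Benjamini-Hochberg adjustment over 10915 entries (10914 distinct symbols). The 9 library directions with no residual variance were covariates, which leaves 24 degrees of freedom. No filter on low values was used. The alternatives were 33 degrees of freedom, no trend, robust moderation, quantile normalization, median centring, a filter that removes the lowest 25% of means, a replicate block, the compared groups alone and leaving out each library. On simulated data with as many removed factors the share of false calls was above the nominal level with both settings of the degrees of freedom, and lower with 24 than with 33. Depth per library is unknown, so no counting intervals can be given.

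The 3 cytokines, the 18 gene lists and the tests were chosen with earlier results of these data known. Named genes are the 3 cytokines, the 5 entries with the highest Pearson r with each, up to 4 called genes per list and comparison, and a set named regardless of result (Casp1, Nlrp3, Il1r1, Il1rap, Tnfrsf1a, Tnfrsf1b, Adam17, Zfp36, Nfkbia, Tlr4 and Cd14). Il18, Ltb, the genes flanking the cytokines and values below the threshold for Plac8 were added after values were seen. Motifs were counted in RefSeq promoters and GENCODE M21 transcripts.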

Additional observations from a re-analysis of the deposited data

Results flagged for a closer look

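In groups of 4 to 10 libraries, a library was singled out when its gap to the nearest other exceeded Dixon's 95% limit for the share of the group's range. Of 36 gene and group combinations (Il1a, Il1b, Tnf, Il1r1, Ccr2 and Arhgap15 in 6 groups each) 3 met this, and chance gives about 5% of groups. Tnf in APP23 4xLPS replicate 2 was 6.99 (6.98518), against 7.14 in the nearest library. Arhgap15 in APP23 1xLPS replicate 5 was 7.68, against 7.75 in the nearest library. Arhgap15 in APP23 4xLPS replicate 1, the library that was also highest in Il1a among the 4xLPS libraries, was 7.86, against 7.80 in the nearest library.

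The response of Hnrnpd to 4xLPS differed between the genotypes by 0.16 in the interaction test (95% interval 0.087 to 0.23, adjusted p = 0.0371, limma). Hnrnpd was at -0.043 in wildtype 4xLPS against PBS (adjusted p = 0.330) and at 0.12 in APP23 (adjusted p = 0.390). With the replicate block the adjusted p of the interaction was 0.0727.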

How the results depend on the processing

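Il1a was called with all libraries under each alternative setting of the fit except the replicate block, and also with the compared groups alone after PBS, in APP23 against wildtype after PBS and over 3 treatments. The replicate block gave -0.058 (adjusted p = 0.111) and -0.043 (adjusted p = 0.124), both in limma. Of 79 same-numbered pairs of libraries 17 correlated above 0.1 (r from -0.38 to 0.28). In 16 of the 79 the library correlated best with its own number. These values follow a surrogate variable correction whose factors are unknown, so they cannot show whether the numbers pair the libraries. After 1xLPS the difference of -0.059 was called with 33 degrees of freedom (adjusted p = 0.00651) and with the compared groups alone (adjusted p = 0.0163). Of the calls of other named genes, Il1r1 after PBS kept a limma adjusted p under 0.05 with the block (0.0469). The remaining calls had block values from 0.0513 (Ccl4 and Chuk, wildtype 4xLPS against PBS) to 0.169 (Cd209a over 3 treatments). Changes of sign occurred in differences that were not called: the 1xLPS interaction of Il1a (-0.0021 with quantile normalization, -0.0029 with the block) and of Il1b (0.0034 with median centring, 2.7e-05 with the block), and, with the block, Il1b in wildtype 4xLPS against 1xLPS (0.017) and Tnf in APP23 against wildtype after 1xLPS (-0.0083) and over 3 treatments (-0.011). The cause was not tested. Leaving out 1 library gave ranges of -0.064 to -0.055 for Il1a after PBS, -0.063 to -0.056 after 1xLPS, -0.0044 to 0.0050 for its 1xLPS interaction, 0.029 to 0.059 for its 4xLPS interaction and 0.0032 to 0.033 for APP23 4xLPS against PBS. For Il1b they were -0.026 to 0.019 for the 1xLPS interaction, -0.042 to 0.017 for wildtype 4xLPS against 1xLPS and -0.0029 to 0.034 for APP23 4xLPS against PBS. For Tnf they were -0.012 to 0.031 in APP23 against wildtype after 1xLPS, -0.0041 to 0.018 over 3 treatments, -0.055 to 0.0047 after 4xLPS and -0.031 to 0.0040 for wildtype 4xLPS against 1xLPS.

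Counts of called entries moved more than the differences did. With 24 degrees of freedom, 33 degrees of freedom and the replicate block they were 274, 1050 and 60 for APP23 against wildtype after PBS, 36, 474 and 0 after 1xLPS, 0, 171 and 0 after 4xLPS and 129, 662 and 27 over 3 treatments. For wildtype they were 48, 660 and 28 (1xLPS against PBS), 165, 977 and 25 (4xLPS against PBS) and 2, 72 and 0 (4xLPS against 1xLPS), and for APP23 0, 78 and 4, then 0, 27 and 1, then 0, 162 and 1. For the interactions they were 4, 370 and 9 (1xLPS) and 57, 579 and 2 (4xLPS). Leaving out the lowest 25% of means changed 4 of the small counts by over 1.5 times (from 2 to 5, 0 to 2, 0 to 1 and 4 to 0) and gives no value for Il1b, Tnf and Il1r1, which it removes. The compared groups alone give no average over 3 treatments. Depth is unknown, and small differences in Il1b and Tnf lie within the intervals given.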
